A study of Mus musculus with 27 samples.

Results

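The 10 genes described here, Ccna2, Ccnb2, Cdk1, Plk1, Aurka, Aurkb, Foxm1, Cdc25b, Cdc25c and Nek2, encode cyclins, kinases, phosphatases and a transcription factor that take a cell into mitosis. They were chosen by name from the 18193 genes that had a probe set of a single symbol on the array. The 10 genes had 20 such probe sets, and each gene was read from its brightest one. All 10 brightest probe sets lay above background on all 27 arrays.

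In a dividing cell, the kinase CDK1 starts mitosis once it is bound to a cyclin. WEE1-type kinases keep CDK1 off by phosphorylating it, the CDC25 phosphatases remove that block, and PLK1 and Aurora A help to throw the switch. FOXM1 and the MYB-MuvB complex activate many of these genes late in the cycle. After DNA breaks, checkpoint kinases restrain the CDC25 phosphatases, and p53 acts through the inhibitor p21 and the repressor complex DREAM to lower transcription of the same genes.

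Messenger RNA was measured on Affymetrix arrays in mouse embryonic fibroblasts of 3 lines. These were a wild-type line, a line lacking PKBalpha (the kinase encoded by Akt1, called the knockout), and a line that the labels describe as the knockout with PKBalpha restored (the line labelled R). Cells of each line were harvested without treatment or at 4 h or 24 h after a gamma-ray dose of 10 Gy, in 9 groups of 3 arrays. All cells were female, at passage 45, grown in 10% serum and cultured for 24 h before irradiation. Each genotype was 1 line, so the replicates, which the series calls biological, vary only as cultures of that single line do. How long the untreated cells were kept is not given in the labels, so irradiation and time in culture cannot be told apart. In RNA of whole cultures, fewer cells near mitosis and less of a transcript per cell cannot be told apart either.

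Akt1 read 2980 to 4550 on the wild-type arrays, 2.35 to 65.5 on those of the knockout and 6.25 to 41.9 on those of the line labelled R (a reading of its brightest probe set). Whether that probe set covers the restored construct is not given in the sources used here, so the reading does not settle the level of PKBalpha in line R. Groups follow the sample titles, although 6 wild-type samples titled as irradiated are described as untreated. The background level was 69.86, the highest reading of 15 probe sets for Y-linked genes. Array medians ran from 54.43 to 80, and 10003 to 10850 genes per array lay above background. Of 12 fibroblast markers, 11 lay above background in every group. Above background in no group were 3 of 6 epithelial, 4 of 5 endothelial, 4 of 5 haematopoietic and 4 of 5 pluripotent cell markers. Their summed level on an array was at most 413, 678, 232 and 211, against at least 129000 for the fibroblast markers.

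In 5 arrays, the log2 ratio of the 3' to the 5' control probe sets of Gapdh stood apart, at -0.187 to 0.16 against -0.466 to -0.298 on the other 22. They were wild-type replicates 2 (untreated) and 0 (4 h), knockout replicate 2 (untreated), and replicates 1 (untreated) and 2 (24 h) of line R. The 10 genes read low on 4 of them, with a mean log2 difference from the other arrays of the same group of -0.216 to -0.654. On the remaining one, the wild-type array at 4 h, it was 0.081. For the other 22 arrays, the comparison also used only arrays outside the 5, leaving 1 in groups that held 1 of the 5. Their differences ran from -0.294 to 0.294, and the untreated wild-type array that stood apart, at -0.216, lay within that range. Each untreated group held 1 of the 5 arrays, so values are also given without the 5 where they move with these arrays.

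**Figure D1:**
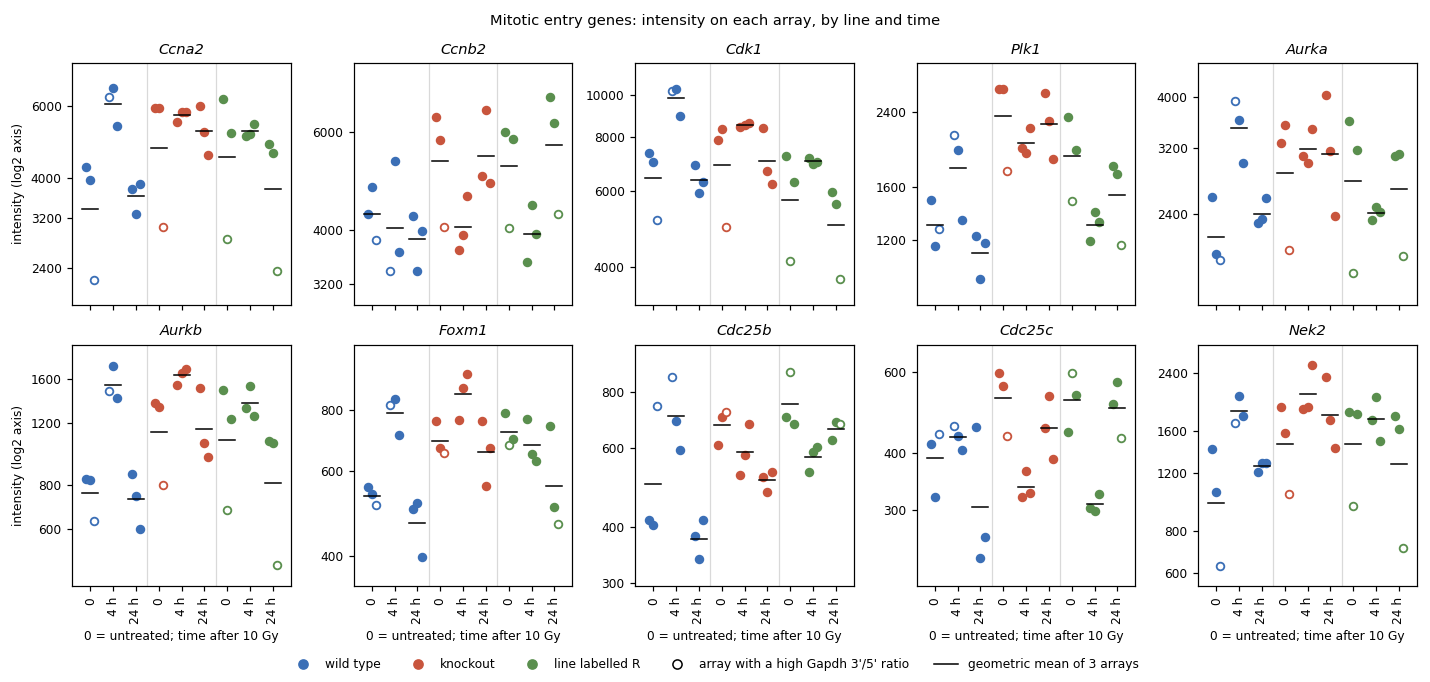
Intensity of each of the 10 genes (log2 axis) on each of the 27 arrays, with 3 arrays for each line and time. Points are arrays, bars are geometric means of 3 arrays, and open points mark the 5 arrays whose Gapdh ratio stood apart. Wild-type cells at 4 h lay above untreated wild-type cells on every array for Ccna2, Cdk1, Aurka, Aurkb, Foxm1 and Nek2.

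In the wild-type line, 9 of the 10 genes read higher at 4 h after irradiation than in untreated cells, and Ccnb2 was the exception. The median difference was 0.59 on the log2 scale, against -0.01 over all genes. With limma over all 27 arrays, however, none of the 10 passed the threshold of an adjusted p below 0.05, which 3.25% of all genes passed. At an unadjusted p below 0.05 there were 7, against 17% of all genes. For 6 of the 10, by the brightest probe set, all 3 arrays at 4 h lay above all 3 untreated arrays, which held for 10.3% of all genes. When the 5 arrays were left out, Aurkb and Cdc25b rose (2 of 10, against 1.3% of all genes), and the median difference was 0.52.

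Both Aurora kinase genes read higher at 4 h on every array. Aurkb, which encodes the kinase of the chromosomal passenger complex, read 834, 828 and 634 in untreated wild-type cells (replicates 0, 1 and 2) and 1478, 1737 and 1406 at 4 h. The groups did not overlap, and the difference was 1.01 ± 0.30 (log2, SE, n = 3 arrays in each group; adjusted p = 0.072, and 0.91 ± 0.20 with adjusted p = 0.036 without the 5 arrays). Aurka encodes the centrosomal Aurora kinase, which activates PLK1. It read 2583, 2015 and 1958 before and 3918, 3611 and 2997 at 4 h, again without overlap (0.69 ± 0.25, adjusted p = 0.14). Without the 5 arrays the Aurka difference was 0.53 ± 0.19 (adjusted p = 0.18).

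Among the cyclins and their kinase, Ccna2 and Cdk1 read higher and Ccnb2 did not. Ccna2 encodes cyclin A2, which works from S phase up to mitotic entry. Its arrays read 4260, 3961 and 2245 in untreated wild-type cells and 6312, 6665 and 5358 at 4 h (0.86 ± 0.31, adjusted p = 0.15). Cdk1, the mitotic kinase itself, read 7325, 6972 and 5142 before and 10210, 10280 and 8945 at 4 h (0.61 ± 0.22, adjusted p = 0.14). Neither gene's groups overlapped, and the lowest untreated value of both was on the array whose Gapdh ratio stood apart. Ccnb2, which encodes cyclin B2, a partner of CDK1 in mitosis, read 4277, 4775 and 3833 before and 3371, 5313 and 3652 at 4 h, with groups that overlapped (-0.09 ± 0.22, adjusted p = 0.90).

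Foxm1, the gene of the transcription factor that switches on many genes of this set, read 556, 537 and 510 in untreated wild-type cells. At 4 h it read 820, 844 and 713, above all untreated arrays (0.57 ± 0.16, adjusted p = 0.063, and 0.51 ± 0.20 with adjusted p = 0.21 without the 5 arrays). By its 2 further probe sets above background the groups overlapped (0.44 and 0.59, adjusted p = 0.45 and 0.26 over all probe sets). Cdc25b, whose phosphatase activates CDK1 at the centrosome before mitosis, read 415, 404 and 747 before and 866, 690 and 595 at 4 h. The untreated value of 747 was on the array that stood apart. The difference was 0.50 ± 0.19 (adjusted p = 0.17) with that array 0.65 ± 0.14 (adjusted p = 0.031) without the 5, and 0.79 (adjusted p = 0.021) without that array alone.

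Nek2, a kinase that lets the centrosomes separate, read 1412, 1050 and 627 in untreated wild-type cells and 1701, 2053 and 1787 at 4 h. The groups were apart (0.92 ± 0.34, adjusted p = 0.16), and the lowest value was again on the array that stood apart. Plk1, the polo-like kinase of entry and spindle assembly, read 1487, 1158 and 1274 before and 2115, 1949 and 1334 at 4 h, where replicate 2 overlapped the untreated values (0.44 ± 0.22, adjusted p = 0.33). Cdc25c, a second phosphatase of CDK1, read 418, 320 and 440 before and 458, 435 and 406 at 4 h, with overlap (0.15 ± 0.21, adjusted p = 0.78).

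Promoters of genes that peak at mitosis often carry a cell cycle homology region (CHR, the letters TTTGAA or TTCGAA), where MuvB complexes bind, and CCAAT boxes, where NF-Y binds. The RefSeq promoter table (build GRCm38.p6, 250 bases before to 50 after the start) held 6 of the 10 genes: Ccnb2, Cdk1, Plk1, Aurka, Cdc25b and Nek2. On either strand, the CHR letters were found in 5 of these 6, against 19.2% of 32851 promoters, and CCAAT in 6 of 6, against 37.4%. Both were found in 5 of 6, against 7.52% of all promoters, and no match overlapped another. A match of letters is a description and not a measured site. The promoters of 4 genes are shown because their values differed in kind: Cdk1 read higher at 4 h in wild-type cells, Ccnb2 did not, Plk1 differed between the knockout and the wild type, and Cdc25b read higher at 4 h and differed between line R and the wild type. Each is written 5' to 3' on the gene's own strand, with both kinds of match in capitals.
Ccnb2: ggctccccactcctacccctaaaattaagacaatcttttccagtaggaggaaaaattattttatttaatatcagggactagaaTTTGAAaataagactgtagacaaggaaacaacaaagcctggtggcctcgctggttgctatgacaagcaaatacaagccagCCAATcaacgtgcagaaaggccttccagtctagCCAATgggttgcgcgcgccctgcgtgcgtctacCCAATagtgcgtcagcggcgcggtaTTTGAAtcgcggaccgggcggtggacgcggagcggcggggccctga
Cdk1: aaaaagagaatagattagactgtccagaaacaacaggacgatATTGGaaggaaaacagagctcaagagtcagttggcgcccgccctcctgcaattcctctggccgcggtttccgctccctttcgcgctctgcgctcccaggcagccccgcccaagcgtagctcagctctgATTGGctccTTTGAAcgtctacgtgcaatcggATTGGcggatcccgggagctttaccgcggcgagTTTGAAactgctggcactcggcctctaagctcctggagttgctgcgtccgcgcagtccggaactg
Plk1: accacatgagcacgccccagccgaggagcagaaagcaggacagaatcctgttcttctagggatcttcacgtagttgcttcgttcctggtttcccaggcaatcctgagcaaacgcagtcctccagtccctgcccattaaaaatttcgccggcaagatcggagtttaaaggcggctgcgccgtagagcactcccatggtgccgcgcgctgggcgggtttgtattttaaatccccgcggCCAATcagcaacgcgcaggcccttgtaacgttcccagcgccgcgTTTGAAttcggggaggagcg
Cdc25b: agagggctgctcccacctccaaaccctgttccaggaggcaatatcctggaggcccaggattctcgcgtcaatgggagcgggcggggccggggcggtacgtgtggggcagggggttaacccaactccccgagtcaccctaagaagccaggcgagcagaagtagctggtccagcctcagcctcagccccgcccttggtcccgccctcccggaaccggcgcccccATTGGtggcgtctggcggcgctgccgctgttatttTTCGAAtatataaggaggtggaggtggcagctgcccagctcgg

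The Ccnb2 window lies at chr9:70421505-70421804 (minus strand), that of Cdk1 at chr10:69352863-69353162 (minus strand), that of Plk1 at chr7:122159185-122159484 (plus strand) and that of Cdc25b at chr2:131186698-131186997 (plus strand). The Ccnb2 window had 2 CHR matches and 3 CCAAT boxes, and the last CHR match began 5 bases after the start. The Cdk1 window likewise had 2 CHR matches and 3 CCAAT boxes, with a CHR match from -71 to -66 and a CCAAT box from -80 to -76. The windows of Plk1 and Cdc25b had 1 match of each kind, and that of Cdc25b was TTCGAA. The difference at 4 h in wild-type cells was -0.09 for Ccnb2 and 0.61 for Cdk1.

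Neighbours of these genes in the switch were read from lists of related genes. Over all genes, 275 of 18193 rose at 4 h in the wild type and 317 fell. Of 15 measured partners, activators and brakes of CDK1, 2 rose at 4 h in the wild type and none fell (median 0.25). Ccnf, which encodes cyclin F, rose from 751 to 1329 (0.82 ± 0.15, adjusted p = 0.0054), and Gtse1, a G2 protein that damps p53, rose from 457 to 1148 (1.33 ± 0.29, adjusted p = 0.017). Of 10 partners of the Aurora and Polo kinases, 3 rose (median 0.45): Cenpu, a centromere protein that docks PLK1, by 0.79, Ttk, the spindle checkpoint kinase MPS1, by 0.53, and Plk4, the centriole kinase, by 0.88, with adjusted p = 0.0089, 0.021 and 0.022. Ttk also stands in the kinetochore list, where 7 of 23 genes rose (median 0.53). Replication licensing genes, which act in G1 and S phase and not at mitotic entry, read higher in the same arrays: 6 of 17 rose (median 0.46). Mcm10 had the smallest adjusted p of the list (1.08 ± 0.15, adjusted p = 0.0015), and the largest difference in it was 1.35. These counts moved with single arrays. Leaving out any 1 of the 6 arrays compared gave 0 to 3 kinetochore and 2 to 3 licensing genes, with the 0 when replicate 0 at 4 h was left out, and 1 to 4 Aurora and Polo partners and 1 to 2 of the CDK1 list. Over all genes, leaving out 1 array gave 190 to 481 calls in either direction, against 592 with all arrays. When all 5 arrays were left out, 5 kinetochore genes, 7 licensing genes, 3 Aurora and Polo partners and 3 genes of the CDK1 list rose, as did 1.3% of all genes.

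Genes of the brakes that DNA damage puts on mitotic entry also read higher in 11 of 12 cases. Of 12 such genes, 2 rose at 4 h in the wild type and none fell (median 0.47), against 275 and 317 of all 18193 genes. Cdkn1a, the gene of p21, rose from 592 to 2132 (1.85 ± 0.39, adjusted p = 0.015), and Plk2, a stress-induced polo-like kinase, from 1379 to 2554 (0.89 ± 0.19, adjusted p = 0.016). Wee1, the kinase that blocks CDK1, read 499 before and 838 at 4 h (adjusted p = 0.068), and Chek1, the kinase CHK1, 471 and 699 (adjusted p = 0.089). Of 14 genes of the DREAM, MuvB and MYB regulators, 2 rose (median 0.58): Nfya, a subunit of the CCAAT-binding factor NF-Y, from 558 to 1170 (adjusted p = 0.009), and Lin54, the MuvB subunit that binds the CHR, from 548 to 1006 (adjusted p = 0.027). Among 12 genes of the anaphase-promoting complex and its helpers, 1 rose, Cdc14b, which encodes a phosphatase, by 0.93 ± 0.18 (adjusted p = 0.011, and none without replicate 0 at 4 h). With the 5 arrays left out, 1 of the 12 brakes rose (1.3% of all genes), and Plk2 (adjusted p = 0.13) and Lin54 (adjusted p = 0.058) no longer passed. Leaving out 1 array gave 1 to 2 of the brakes and 1 to 2 of the DREAM list.

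Between 4 h and 24 h all 10 genes read lower in the wild type, with a median difference of -0.64 against 0.04 over all genes. Foxm1 and Cdc25b fell (2 of 10, as did 1.49% of all genes), and 8 of 10 had an unadjusted p below 0.05, against 15.5%. For 8 of 10, the 3 arrays at 24 h lay below the 3 at 4 h, against 11.1% of all genes. In the fit without the 5 arrays, Ccna2, Cdk1, Aurkb, Foxm1 and Cdc25b fell (5 of 10, against 2.08%). These differences use the same 4 h arrays as those above, so both comparisons share whatever is particular to these arrays.

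Foxm1 went from 820, 844 and 713 at 4 h to 500, 515 and 399 at 24 h (-0.75 ± 0.16, adjusted p = 0.020). The call was lost when replicate 0 or 1 at 4 h (adjusted p = 0.080 and 0.079), or replicate 1 or 2 at 24 h (adjusted p = 0.051 and 0.087), was left out, with differences of -0.64 to -0.82. Cdc25b went from 866, 690 and 595 to 383, 339 and 414 (-0.91 ± 0.19, adjusted p = 0.017). Its call was lost without replicate 0 or 1 at 4 h (adjusted p = 0.10 and 0.054) or replicate 1 at 24 h (adjusted p = 0.081). Neither gene's groups overlapped.

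Aurkb gave the difference of the largest size in the set, with 858, 747 and 602 at 24 h (-1.08 ± 0.30, adjusted p = 0.065, and -1.10 ± 0.18 with adjusted p = 0.0067 without the 5 arrays). Ccna2 read 3751, 3266 and 3865 at 24 h (-0.75 ± 0.31, adjusted p = 0.23, and 0.0092 without the 5), and Cdk1 read 6868, 5918 and 6285 (-0.63 ± 0.22, adjusted p = 0.14, and 0.017 without the 5). Every value of these 3 genes at 24 h lay below every value at 4 h. Plk1 read 2115, 1949 and 1334 at 4 h and 1225, 968 and 1177 at 24 h (-0.66 ± 0.22, adjusted p = 0.13, and -0.86 with 0.047 without replicate 2 at 4 h), and Aurka and Nek2 gave -0.54 and -0.55, all without overlap. Without the 5 arrays the Plk1 difference was -0.53 ± 0.18 (adjusted p = 0.13). Cdc25c (-0.51, adjusted p = 0.22, and -0.80 with 0.034 without replicate 0 at 24 h) and Ccnb2 (-0.07, adjusted p = 0.94) were the 2 genes whose groups overlapped.

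Other genes of the switch fell in the same interval, in which 271 of all 18193 genes fell and 202 rose. Of the 15 partners, activators and brakes of CDK1, 3 fell and none rose: Ccnf from 1329 to 563 (-1.24 ± 0.15, adjusted p = 0.00043), Bora, the protein through which Aurora A activates PLK1, from 597 to 265 (-1.17 ± 0.21, adjusted p = 0.0084), and Gtse1 from 1148 to 505 (adjusted p = 0.033). Of the 10 Aurora and Polo partners, 4 fell, Ttk, Cenpu, Birc5 and Incenp, the last 2 being subunits of the chromosomal passenger complex (-0.75 and -0.78, adjusted p = 0.029 and 0.037). Mybl2, the B-MYB partner of MuvB, fell from 486 to 224 (adjusted p = 0.028). It was 1 of 2 genes of the DREAM list that fell, and its adjusted p was 0.11 without the 5 arrays. In the kinetochore list 7 of 23 fell, and in the licensing list 5 of 17.

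Of the 12 brakes, 10 read lower at 24 h than at 4 h (median -0.23), and 1 fell and 1 rose, against 271 and 202 of all 18193 genes. Atr, the kinase that activates CHK1, fell from 576 to 347 (-0.73 ± 0.14, adjusted p = 0.010). Gadd45a, a damage-induced brake on CDK1, rose from 577 to 1396 (1.27 ± 0.26, adjusted p = 0.015), while Cdkn1a read 2132 and 1857 (adjusted p = 0.88). With the 5 arrays left out, 5 genes of the CDK1 list, 6 Aurora and Polo partners, 9 kinetochore genes, 6 licensing genes and 2 brakes fell, as did 2.08% of all genes. Leaving out 1 array gave 1 to 2 of the CDK1 list, 1 to 5 partners, 2 to 8 kinetochore genes, 1 to 3 licensing genes, 0 to 3 of the DREAM list and, in either direction, 0 to 2 brakes. Over all genes it gave 101 to 628 calls in either direction, against 473 with all arrays. The kinetochore count was 2 or 3 without replicate 0 or 1 at 4 h or replicate 1 or 2 at 24 h, and the brakes gave 0 without replicate 0 at 4 h.

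Against untreated cells, the wild type at 24 h showed no call among the 10 (0.0495% of all genes passed, 1 of 10 at an unadjusted p below 0.05, against 9.59%). The median was -0.11, from -0.41 for Cdc25b to 0.37 for Nek2, and no gene's groups were apart, against 7.68% of all genes with the irradiated group higher and 8.09% with it lower. With the 5 arrays left out, the median was -0.19, Cdc25b stood at -0.12 and Nek2 at 0.05, and there was no call (0.0715% of all genes). Cdkn1a read 592 untreated and 1857 at 24 h (1.65 ± 0.39, adjusted p = 0.15).

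**Figure D2:**
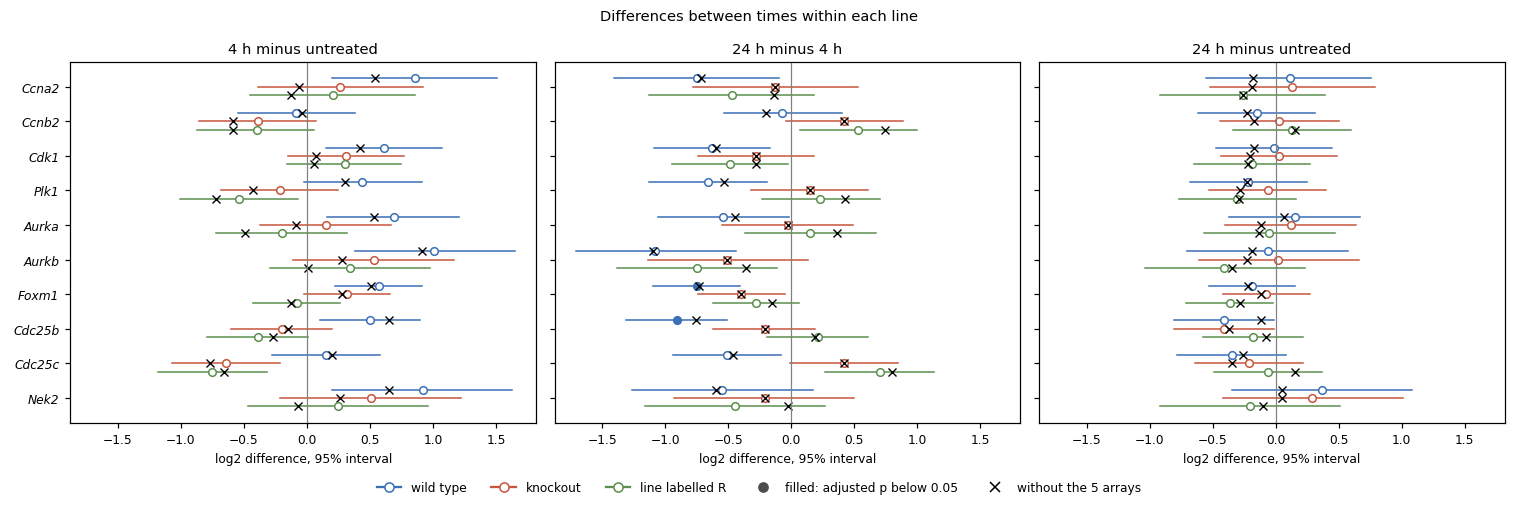
Log2 differences between times within each line for the 10 genes, with 95% intervals from limma over all arrays. Circles are colored by line and filled where the adjusted p is below 0.05, and crosses give the value without the 5 arrays. In the wild type the 4 h values lie right of 0 for 9 of 10 genes and the 24 h minus 4 h values left of 0 for 10 of 10, with Foxm1 and Cdc25b filled.

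In the knockout, 4 h after irradiation, the 10 genes showed no common direction. None passed the threshold (0.368% of all genes did), and 1 had an unadjusted p below 0.05, against 13%. With all arrays 6 read higher and 4 lower (median 0.21), and without the 5 arrays 4 read higher and 6 lower (median -0.08). Cdc25c was the gene with that p: it read 597, 559 and 435 in untreated knockout cells and 320, 366 and 328 at 4 h, without overlap (-0.64 ± 0.21, adjusted p = 0.17), as 14.1% of all genes did in that direction. The groups of 3 other genes were apart with the irradiated one higher (10.4% of all genes): Cdk1 at 8417, 8518 and 8587 against 7843, 8345 and 4957, Aurkb at 1536, 1665 and 1708 against 1367, 1326 and 800, and Foxm1 at 765, 892 and 951 against 760, 669 and 655. Their adjusted p values were 0.59, 0.49 and 0.42, and the differences of 0.31, 0.53 and 0.32 were 0.07, 0.28 and 0.28 without the 5 arrays.

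Ccna2, Aurka and Nek2, apart in the wild type at 4 h, overlapped in the knockout. Ccna2 read 5957, 5957 and 3026 in untreated knockout cells and 5489, 5818 and 5796 at 4 h (0.26, adjusted p = 0.78). Aurka read 3265, 3529 and 2047 before and 3091, 2998 and 3475 at 4 h (0.15, adjusted p = 0.85), and Nek2 read 1901, 1588 and 1039 before and 1868, 1898 and 2543 at 4 h (0.51, adjusted p = 0.56). The low untreated value of each was on the array that stood apart, and without the 5 arrays the differences were -0.06, -0.09 and 0.26.

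In the line labelled R at 4 h, the genes again showed no call (0.978% of all genes passed, 2 of 10 at an unadjusted p below 0.05, against 14.7%). Here 6 of 10 read lower (median -0.14), and 8 of 10 without the 5 arrays (median -0.20). Cdc25c read 444, 596 and 535 untreated and 303, 299 and 326 at 4 h (-0.75 ± 0.21, adjusted p = 0.083). Plk1 read 2335, 1478 and 1950 untreated and 1189, 1391 and 1323 at 4 h (-0.54 ± 0.22, adjusted p = 0.26, and -0.72 ± 0.18 with adjusted p = 0.088 without the 5). Cdc25b read 705, 889 and 678 untreated and 531, 588 and 603 at 4 h (-0.39 ± 0.19, adjusted p = 0.35). In these 3 genes all irradiated arrays lay below all untreated ones, which held for 12.3% of all genes. The highest untreated values of Cdc25c and Cdc25b were on the array that stood apart. Their differences were -0.66 ± 0.22 and -0.27 ± 0.13 without the 5 arrays (adjusted p = 0.19 and 0.34). Ccna2, Cdk1, Aurka, Aurkb and Nek2 gave 0.21, 0.30, -0.20, 0.34 and 0.25, and -0.13, 0.06, -0.49, 0.01 and -0.07 without the 5 arrays.

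Ccnb2 in both of these lines read lower at 4 h, from 6374, 5806 and 4052 to 3677, 3922 and 4601 in the knockout (-0.39 ± 0.22, adjusted p = 0.48) and from 6006, 4032 and 5819 to 3497, 4432 and 3926 in line R (-0.40 ± 0.22, adjusted p = 0.42). The overlap came from the untreated array that stood apart in each. Leaving out the 5 arrays gave -0.59 ± 0.18 in both, with adjusted p = 0.12 and 0.14.

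In line R at 4 h, 1 of 12 genes of the anaphase-promoting complex and 1 of 23 of the kinetochore list fell and none rose, where 0.978% of all genes passed. The kinetochore list had no common direction, with 13 of 23 higher (median 0.03). Cdc20, the activator of the anaphase-promoting complex, fell from 5389 to 3027 (-0.83 ± 0.17, adjusted p = 0.028, and 0.061 without the 5 arrays), and Cenpf, a kinetochore protein that accumulates in G2, fell from 1858 to 1131 (adjusted p = 0.042). The count of the kinetochore list was 0 without any 1 of the 6 arrays and 2 without the 5, and that of the anaphase-promoting complex was 0 without the 5 or without any 1 array but untreated replicate 0. Cenpe, the kinetochore motor, read 1804 and 1007 in line R (adjusted p = 0.080, and 0.041 without the 5) and 1774 and 1149 in the knockout (adjusted p = 0.22, and 0.037 without the 5). In the knockout, limma called none of either list with all arrays, and 4 of 12 and 4 of 23 had an unadjusted p below 0.05, against 13% of all genes. Licensing genes read higher in 16 of 17 cases in both lines (median 0.39 and 0.50), with Mcm10 rising in the knockout from 813 to 1347 (adjusted p = 0.039). That call, the 1 of 17 there against 0.368% of all genes, was lost without any 1 of the 6 arrays. In line R 3 licensing genes rose without untreated replicate 0, where none did with all arrays and 10 of 17 had an unadjusted p below 0.05, against 14.7% of all genes. Cdkn1a read 235 untreated and 234 at 4 h in the knockout (adjusted p = 1.0) and 115 and 147 in line R (adjusted p = 0.73).

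From 4 h to 24 h, no gene of the 10 passed in the knockout (0.0055% of all genes did, 1 of 10 at an unadjusted p below 0.05, against 8.22%) or in line R (1.57%, and 4 of 10 against 15.6%). In line R the genes split: Cdc25c read 511, 570 and 431 at 24 h, above all 4 h arrays (0.70 ± 0.21, adjusted p = 0.093), and Ccnb2 read 6943, 6215 and 4272 (0.53 ± 0.22, adjusted p = 0.25, and 0.74 ± 0.18 with 0.051 without the 5). Aurkb went the other way, from 1321, 1524 and 1258 to 1069, 1052 and 475 (-0.75 ± 0.30, adjusted p = 0.23), as did Cdk1, from 7146, 6930 and 6976 to 5971, 5579 and 3758 (-0.49 ± 0.22, adjusted p = 0.29). The lowest of each was on the array that stood apart, and both genes' groups stayed apart without it. The differences were smaller without the 5 arrays, at -0.36 ± 0.18 for Aurkb and -0.28 ± 0.12 for Cdk1 (adjusted p = 0.33 and 0.24). In the knockout, Foxm1 had the smallest p (-0.40 ± 0.16, adjusted p = 0.50). At 24 h against untreated cells neither line showed a call among the 10 (0% of all genes in both, 1 of 10 in each at an unadjusted p below 0.05, against 5.85% and 4.56%). In the knockout 6 read higher and 4 lower (median 0.03), and in line R 1 read higher and 9 lower (median -0.20). Without the 5 arrays this was 1 and 9 in the knockout (median -0.20) and 2 and 8 in line R (median -0.17), again without a call. The median over all genes was then 0.01 in both.

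The difference between lines in the 4 h response was tested for each gene. All 10 differences were negative for the knockout minus the wild type (median -0.51, against -0.04 over all genes) and for line R minus the wild type (median -0.67, against -0.04), but limma called none of the 10, and 0.011% and 0.0165% of all genes. At an unadjusted p below 0.05 there were 2 of 10 (against 5.49%) and 5 of 10 (against 5.95%). The 2 comparisons share the 6 wild-type arrays, whose difference enters both. The largest for line R were Plk1 at -0.98 ± 0.32, Cdc25c at -0.91 ± 0.29, Cdc25b at -0.89 ± 0.27 and Aurka at -0.89 ± 0.35, with adjusted p = 0.58, 0.58, 0.52 and 0.74. For the knockout, Cdc25c was at -0.79 ± 0.29 and Cdc25b at -0.70 ± 0.27 (adjusted p = 0.75 and 0.80). In the fit without the 5 arrays the medians were -0.61 and -0.79, the lowest adjusted p was 0.098 (Cdc25b in line R, -0.92 ± 0.19), and there was no call (0.104% and 0.0495% of all genes). At 24 h the medians were 0.06 and -0.18, and limma called none of the 10 (0.0055% of all genes in both), with 0 of 10 at an unadjusted p below 0.05 (against 3.44% and 3.75%). Between line R and the knockout the responses also gave no call at 4 h or 24 h (0% and 0.0055% of all genes, with 0 of 10 at an unadjusted p below 0.05, against 2.95% and 2.99%).

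Between the lines, untreated cells of the knockout read higher than wild-type cells for 10 of 10 genes, with a median of 0.43 against 0.00 over all genes. Plk1 was higher (1 of 10, against 7.77% of all genes): it read 1487, 1158 and 1274 in the wild type and 2719, 2719 and 1743 in the knockout, without overlap (0.85 ± 0.22, adjusted p = 0.0099). The call was lost without replicate 0 or 1 of the knockout (adjusted p = 0.055 and 0.054). Cdc25b (0.44 ± 0.19, adjusted p = 0.14) passed without wild-type replicate 2 (0.73, adjusted p = 0.0033). For 2 of 10 genes, Plk1 and Foxm1, the knockout arrays lay above the wild-type ones, against 13.4% of all genes. With the 5 arrays left out, Ccna2, Plk1, Aurka, Aurkb and Cdc25b were higher (5 of 10, against 9.98%), and all 10 were apart (29.5% of all genes).

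Untreated cells of line R were compared with the same wild-type arrays. Of the 10 genes, 9 read higher (median 0.43, against 0.06 over all genes), and Cdc25b was higher (1 of 10, against 9.39% of all genes). It read 705, 889 and 678 in line R and 415, 404 and 747 in the wild type (0.59 ± 0.19, adjusted p = 0.037). The groups overlapped through the wild-type array that stood apart, and the call was lost without replicate 0 or 1 of line R (adjusted p = 0.058 and 0.14) or of the wild type (adjusted p = 0.18 and 0.19). Without the 5 arrays the difference was 0.76 ± 0.14 (adjusted p = 0.0011), and Ccna2, Plk1, Aurka and Aurkb were higher too (5 of 10, against 11.3%). Plk1 (0.54 ± 0.22, adjusted p = 0.11) also passed without replicate 1 of line R alone (0.72, adjusted p = 0.043). Line R and the untreated knockout gave no call for any of the 10 (3.79% of all genes passed, and 0 of 10 had an unadjusted p below 0.05, against 15.5%). Differences between them ran from -0.31 (Plk1, 95% interval -0.78 to 0.15) to 0.15 (Cdc25b, -0.25 to 0.55).

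At 4 h, no gene of the 10 passed between the knockout and the wild type (14.8% of all genes did, 0 of 10 at an unadjusted p below 0.05, against 25%), and 5 read higher and 5 lower (median -0.04). In line R, all 10 read lower than in the wild type at 4 h (median -0.26), with no call over all arrays (16.1% of all genes) and 3 at an unadjusted p below 0.05 (against 26.1%). Cdk1 read 7146, 6930 and 6976 in line R and 10210, 10280 and 8945 in the wild type, without overlap (-0.48 ± 0.22, adjusted p = 0.17, and -0.45 ± 0.12 with adjusted p = 0.015 without the 5 arrays, where it was the 1 of 10 that was lower, against 10.8% of all genes). All 10 also read lower in line R than in the knockout at 4 h (median -0.26, no call, 3.38% of all genes, 2 of 10 at an unadjusted p below 0.05 against 14.3%). Plk1 there read 1189, 1391 and 1323 against 1967, 1918 and 2193, without overlap (-0.64 ± 0.22, adjusted p = 0.14, and 0.028 without the 5, where it was the 1 of 10 that was lower, against 3.79%).

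At 24 h the knockout read higher than the wild type for 10 of 10 genes (median 0.50, against -0.02 over all genes). Plk1 and Foxm1 were higher (2 of 10, against 8.6% of all genes). Plk1 read 1225, 968 and 1177 in the wild type and 2657, 2286 and 1857 in the knockout (1.00 ± 0.22, adjusted p = 0.0026), without overlap, and it passed in all 17 alternatives run. Plk1 had 1 probe set, so the alternatives that average probe sets or test each by itself read the same values. Foxm1 read 500, 515 and 399 against 761, 560 and 669 (0.49 ± 0.16, adjusted p = 0.042). It lost the call without replicate 0 or 2 of the knockout (adjusted p = 0.18 and 0.10) or any 1 of the wild-type replicates 0, 1 and 2 (adjusted p = 0.058, 0.050 and 0.19). For 7 of 10 the groups were apart, against 17.4% of all genes. None of the 5 arrays belongs to either group, and the fit without them gave the same differences with smaller standard errors (0.16 for Plk1) and called 7 of 10 (against 13.4%). Cdc25c (0.57 ± 0.21, adjusted p = 0.059) passed without replicate 2 of the knockout (adjusted p = 0.048) or replicate 0 of the wild type (0.86, adjusted p = 0.0022).

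For line R at 24 h, 9 of 10 genes read higher than in the wild type (median 0.21, against 0.04 over all genes), and Cdc25b and Cdc25c were higher (2 of 10, against 10.9% of all genes). Cdc25b read 626, 687 and 680 in line R and 383, 339 and 414 in the wild type (0.82 ± 0.19, adjusted p = 0.0041), without overlap, and it passed in all 17 alternatives. Cdc25b too had 1 probe set, so the alternatives on probe sets read the same values. Cdc25c read 511, 570 and 431 against 456, 236 and 263 (0.72 ± 0.21, adjusted p = 0.016). Its groups overlapped through wild-type replicate 0, and the call was lost without replicate 1 of line R (adjusted p = 0.073) or replicate 1 or 2 of the wild type (adjusted p = 0.11 and 0.079). Ccnb2 (0.57 ± 0.22, adjusted p = 0.082) passed without replicate 2 of line R (0.77, adjusted p = 0.025), the array that stood apart, and without the 5 arrays 6 of 10 were higher (against 13.3%). Cdk1 was the gene that read lower (-0.34 ± 0.22, adjusted p = 0.32). Between line R and the knockout at 24 h no gene passed (5.27% of all genes did, 2 of 10 at an unadjusted p below 0.05, against 17.5%).

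**Figure D3:**
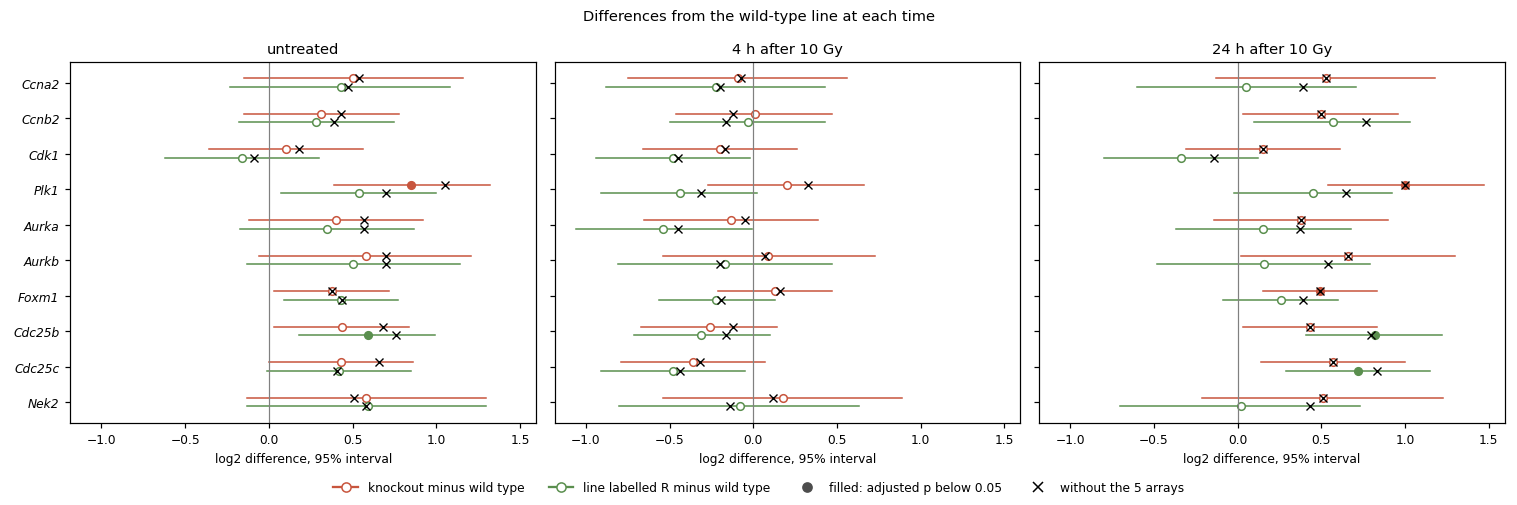
Log2 differences of the knockout and of the line labelled R from the wild type for the 10 genes, untreated, at 4 h and at 24 h, with 95% intervals from limma over all arrays. Filled circles mark an adjusted p below 0.05, and crosses give the value without the 5 arrays. Untreated and at 24 h all 10 knockout values lie right of 0, and at 4 h all 10 values of line R lie left of 0.

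Other genes of the switch also differed between the lines. Untreated, Bora read 411 in the wild type, 869 in the knockout and 733 in line R (1.08 and 0.83, adjusted p = 0.001 and 0.0083). Ccnf read 751, 1167 and 1157 (adjusted p = 0.0036 and 0.0041), and Wee1, which opposes the switch, 499, 968 and 897 (adjusted p = 0.0039 and 0.0094). Ttk read 965, 1944 and 1591 (adjusted p = 3.5e-06 and 0.00017). By list, 3 of 15 CDK1 partners, activators and brakes were higher and 1 lower in the knockout, and 4 and 0 in line R. Of 23 kinetochore genes, 9 were higher in the knockout and 7 in line R, with none lower. Of 17 licensing genes, 1 and 3 were higher, and of 10 Aurora and Polo partners 2 and 4. Over all genes, 7.77% were higher in the knockout and 9.39% in line R, and the licensing count in the knockout lay below that share. Lower over all genes were 1789 and 1709 of 18193. The list counts rose when the 5 arrays were left out, to 14 and 12 kinetochore genes, 7 and 7 licensing genes, 7 and 7 partners and 6 and 6 of the CDK1 list. The shares of all genes that were higher were then 9.98% and 11.3%. Over all genes, leaving out 1 array gave 2505 to 3080 and 2714 to 3329 calls in either direction, against 3202 and 3418. In the lists it gave 6 to 12 and 5 to 11 kinetochore genes, 0 to 3 and 0 to 5 licensing genes, and 1 to 4 and 3 to 6 partners. The highest of these came without untreated replicate 2 of the knockout or untreated replicate 1 of line R, both among the 5, and the partners also gave 4 in the knockout without wild-type replicate 2 and 1 without its replicate 0 or 1 or wild-type replicate 1. The CDK1 list gave 3 to 5 and 2 to 6 in either direction, with the 2 without replicate 0 of line R and the 6 without wild-type replicate 2. The licensing count was 0 without untreated replicate 0 or 1 of the knockout, and in line R 0 without its replicate 0 and 1 without its replicate 2 or wild-type replicate 1. Cdkn1a was lower in both, at 592, 235 and 115 (adjusted p = 0.02 and 0.00015, and 0.089 and 0.0002 without the 5 arrays), and at 24 h it read 1857, 380 and 261 (adjusted p = 0.00021 and 1.9e-05). The summed level of the 5 endothelial markers also differed, at 256 to 678 on wild-type arrays, 63.2 to 153 in the knockout and 91.8 to 149 in line R, and Kdr was the 1 marker above background in any group. Its part in these results was not tested.

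The 5 arrays touched probe sets of the same gene differently. For Ccna2 the brightest probe set stood at -1.0 to 0.08 against the other arrays of the group (log2) and was lower on 4 of the 5, while the second one was higher on all 5, by 0.10 to 0.60. For Foxm1 the brightest probe set stood at -0.39 to 0.08, and 2 others at 0.10 to 0.62. Cdc25b read higher on all 5 (0.05 to 0.87), and Ccnb2, Aurkb and Nek2 read lower on all 5 by their brightest probe sets.

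**Figure D4:**
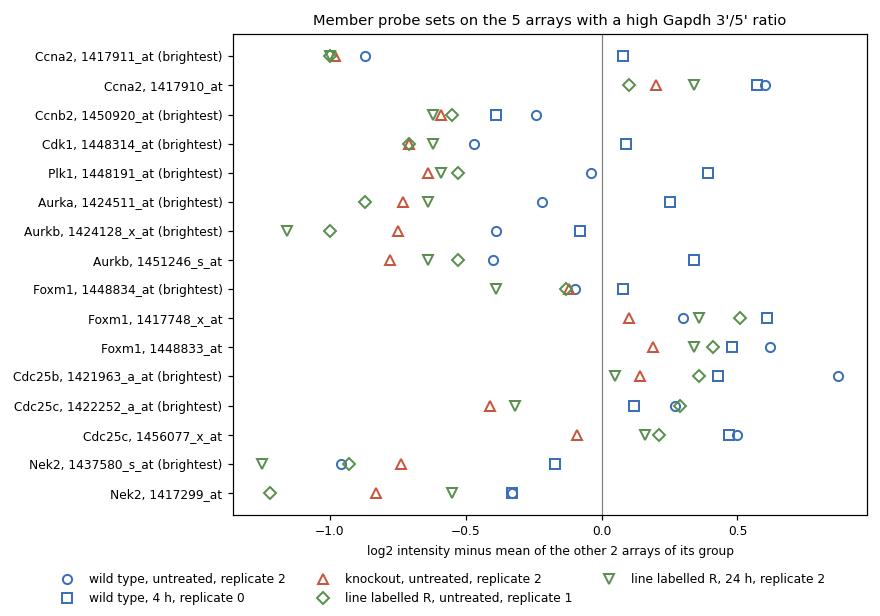
For the 16 probe sets of the 10 genes above background on all 27 arrays, the log2 intensity on each of the 5 arrays whose Gapdh ratio stood apart, minus the mean of the other 2 arrays of its group. The second probe set of Ccna2 and 2 further probe sets of Foxm1 lie right of 0 on all 5 arrays, while both probe sets of Nek2 and the brightest of Aurkb and Ccnb2 lie left of 0 on all 5.

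Further probe sets of 5 genes allowed a second reading, tested over all probe sets. For Foxm1 between 4 h and 24 h in the wild type, 2 further probe sets fell by 1.09 and 1.04 (adjusted p = 0.033 and 0.042), and the brightest gave -0.75 (adjusted p = 0.054 on this wider adjustment). At 4 h against untreated cells these 2 overlapped, at 511 to 938 against 448 to 603 and 540 to 828 against 374 to 585. The second probe set of Ccna2 gave -0.82 (adjusted p = 0.061) between 4 h and 24 h. At 4 h against untreated cells it gave 0.42 (adjusted p = 0.38), with overlap (3723 to 6355 against 3144 to 4816). The second one of Aurkb gave 1.06 at 4 h and -0.98 from 4 h to 24 h (adjusted p = 0.092 and 0.14). That of Nek2 gave 0.70 at 4 h (adjusted p = 0.45), and both genes' groups were apart at 4 h by these probe sets. For Cdc25c the second probe set gave -0.11 at 4 h (adjusted p = 0.90), against 0.15 by the brightest. Cdc25c was higher at 24 h in line R than in the wild type by both of its probe sets (0.72 and 0.78, adjusted p = 0.032 and 0.021).

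Over the 9 groups, the members' shared pattern, the average of their centred log2 group means, was highest in the wild type at 4 h (0.26) and lowest in the wild type at 24 h (-0.39) and untreated (-0.31). The knockout was at 0.15 untreated, 0.21 at 4 h and 0.14 at 24 h, and line R at 0.09, -0.04 and -0.10. The order at the top changed without the 5 arrays, where the untreated knockout was highest (0.26), followed by untreated line R (0.19) and the wild type at 4 h (0.16). The knockout then read 0.14 at 4 h and 0.07 at 24 h and line R -0.11 and 0.05, while the wild type at 24 h (-0.45) and untreated (-0.31) remained lowest. Levels spanned 1.48-fold between the highest and lowest group for Ccnb2 and up to 2.25-fold for Aurkb. In the order of the group means, neighbouring groups overlapped in all 8 pairs for 8 of the 10 genes. The exceptions were Cdk1, with the wild type at 4 h above the knockout at 4 h and that above the knockout at 24 h, and Cdc25b, with line R at 4 h above the knockout at 24 h. Wild-type cells were the lowest group for 9 of the 10, at 24 h for Ccnb2, Plk1, Aurkb, Foxm1, Cdc25b and Cdc25c and untreated for Ccna2, Aurka and Nek2, and Cdk1 was lowest in line R at 24 h. Without the 5 arrays the lowest group differed for Ccna2, which was then lowest in the wild type at 24 h.

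The members followed that average to different degrees. The correlation over 9 group means, which each member's own values enter, was 0.93 for Foxm1, 0.89 for Ccna2 and Aurka, 0.87 for Aurkb, 0.85 for Plk1, 0.82 for Nek2 and 0.71 for Cdc25b. It was 0.57 for Cdk1, 0.42 for Cdc25c and 0.24 for Ccnb2. Without the 5 arrays it was 0.46 for Cdk1, then the lowest, 0.57 for Ccnb2, 0.69 for Cdc25c, 0.91 for Cdc25b and 0.85 to 0.95 for the other 6. Among 9086 other genes above the median level, the 6 most like the average were Cks2, a small CDK-binding protein, Zfp593, Ccnf and Incenp (0.96 each), Prc1, a bundler of spindle microtubules (0.95), and Lmf2 (0.93). Without the 5 arrays these values were 0.69 for Incenp, 0.83 for Zfp593 and 0.91 to 0.94 for the other 4. The groups share lines and arrays, so these are descriptions of 9 points.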

How the data were processed

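The deposited values are linear intensity signals per probe set, 1 column for each of 27 arrays, and their precision rests on the number of arrays, since intensities carry no read depth. Which of RMA and GCRMA, both listed in the submitters' processing notes, gave these values is not given in the sources used here. Per the values, the mean of each array after trimming 2% at either end was 500.003, a common scaling, and no further normalization was applied. Of 45101 probe sets, 64 controls were left out, 34945 had 1 symbol in the platform annotation, 932 several and 9160 none, and 34741 matched RefSeq. Genes were read from the brightest probe set of a single symbol over all arrays.

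From the deposited intensity, log2 values were computed and 9 group means fitted with limma 3.58.1 in R 4.3.3 to 18193 genes (18 residual and 1.39 prior degrees of freedom). Tests were two-sided, adjusted by Benjamini-Hochberg over all genes within each of 24 comparisons, with a threshold of 0.05, and every adjusted p comes from these fits. An exact permutation test of 3 arrays against 3 cannot go below 0.1, so none is given. The series calls the replicates biological without saying whether cultures were separate, so p-values measure only the spread between these samples, part of which may be technical. Replicate numbers 0, 1 and 2 are those of the titles. No 2 arrays held identical values. The method was tested on simulated data for the wild type at 4 h: with 18193 genes, 69% of changes of 1 and 97% of changes of 2 on the log2 scale were recovered, with 8 false calls. The simulation drew independent noise for each gene, without effects shared by an array, and changed only genes above the median level. Its shares are therefore not the power in these arrays.

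The text names the 10 genes, Akt1, Cdkn1a, up to 4 genes of each related list with the smallest p in a comparison, and the 6 genes most like the members' average. The members, lists and tests were chosen with earlier results of these data known. Alternatives were a pseudocount of 16, equal medians, quantile scaling, array weights, an intensity trend, above-median genes, a replicate block, the mean of a gene's probe sets, fits of the compared arrays only, leaving out each array, and, chosen after seeing the data, testing each probe set by itself and leaving out the 5 arrays.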

Additional observations from a re-analysis of the deposited data

How the results depend on the processing

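Of 4440 values recomputed for the 10 genes, 4072 kept their sign and side of the threshold, 34 lost the call, 83 gained it, and 251 changed sign without a call in either fit. Most belonged to differences not called with all arrays, which had no call to lose. Of 17 alternatives each, the call held in 10 for Foxm1 and 13 for Cdc25b in the wild type between 4 h and 24 h. Against the wild type it held in 14 for Plk1 in the untreated knockout and 11 for Cdc25b in untreated line R. At 24 h it held in 17 for Plk1 and 8 for Foxm1 in the knockout, and in 17 for Cdc25b and 12 for Cdc25c in line R. The sign changes lay in 89 of 240 combinations of gene and comparison, none of them called with all arrays. The number of the 10 genes called stayed within 1.5 times in 388 of 444 recomputed counts, but in most comparisons no gene was called with all arrays. Replicate numbers were not used as pairs in the main fit. Over 108 pairs of arrays with a shared number the correlation of their deviations ran from -0.79 to 0.83 (median 0.03). Of 27 arrays, 14 correlated best with their own number, so these values do not settle whether the numbers mark pairs. The replicate block called 2 genes in the wild type at 4 h against untreated cells (0 otherwise) and 2 in untreated line R against the wild type (1 otherwise). Without the 5 arrays, 2 genes were called in the wild type at 4 h, 5 in the wild type between 4 h and 24 h, 5 in each untreated line against the wild type, 7 and 6 in the knockout and line R against the wild type at 24 h, and 1 in line R against the wild type and 1 against the knockout at 4 h. With array weights, 2 were called in the wild type, 1 in the knockout and 2 in line R at 4 h, 6 in the wild type and 2 in line R between 4 h and 24 h, 4 in the knockout and 2 in line R against the wild type untreated, 3 in line R against the wild type and 1 against the knockout at 4 h, and 4 in each line against the wild type at 24 h. Equal medians called 3 in the untreated knockout, and 4 in the knockout and 1 in line R at 24 h, all against the wild type. Fits of the compared arrays called 0 between 4 h and 24 h in the wild type, 0 in each untreated line against the wild type, and 1 in each at 24 h. Each probe set by itself gave 1 between 4 h and 24 h in the wild type, 0 in untreated line R and 1 in the knockout at 24 h, the last 2 against the wild type. Above-median genes gave 2 in the wild type and 1 in line R at 4 h, 1 in line R between 4 h and 24 h, and 2 in untreated line R against the wild type. The intensity trend gave 2 and quantile scaling 1 in the wild type at 4 h, and quantile scaling 2 in untreated line R against the wild type. Leaving out 1 array at a time gave counts from 0 to 1 in the wild type at 4 h, 0 to 3 between 4 h and 24 h, 0 to 2 and 0 to 1 in the untreated knockout and line R against the wild type, and 1 to 2 and 1 to 3 at 24 h, and 0 to 0 elsewhere. The counts over all genes moved with the setting too. Single arrays left out aside, they ran from 0 to 1152 in the wild type at 4 h (592 in the main fit) and 1 to 1281 between 4 h and 24 h (473). Against the wild type they ran from 1258 to 4192 in the untreated knockout (3202) and 1127 to 4042 in untreated line R (3418). At 24 h they ran from 2200 to 4866 (3399) and 1969 to 5614 (3764). The causes of these differences were not tested. All 10 genes read above background on all 27 arrays.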
